A study of Mus musculus with 8 samples.

Results

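The expression of 10 genes of the Polycomb repressive complexes was followed in E14 mouse ESCs as they were moved from serum medium into 2i. The genes were chosen by symbol, with earlier results of these data known. They are Ezh1, Ezh2, Eed and Suz12, the core of Polycomb repressive complex 2 (PRC2), the PRC2 accessory genes Jarid2, Mtf2 and Aebp2, and Rnf2, Pcgf6 and Cbx7 of Polycomb repressive complex 1 (PRC1). Each symbol matched exactly 1 of the 37263 Ensembl identifiers that were counted, and all 10 genes passed the filter on low counts in every comparison. Between 234 and 11324 reads were counted on a member in a library.

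PRC2 methylates lysine 27 of histone H3, and PRC1 places ubiquitin on histone H2A and compacts chromatin. Both complexes sit at CpG-rich promoters, and in ESCs they keep many developmental regulators, the Hox genes among them, at low expression. PRC2 contains either EZH2 or its paralog EZH1 as the methyltransferase, while PRC1 exists in a canonical form with a CBX protein that binds methylated H3K27 and in variant forms defined by the PCGF subunit they hold.

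RNA was taken at 4, 16, 24 and 32 hr after the change of medium, from cells in 2i alone and from cells in 2i with 17 µM vitamin C (vitC), giving 8 libraries, 1 per time and medium. 2i is a serum-free medium with LIF, the MEK inhibitor PD0325901 and the GSK3 inhibitor CHIR99021, and all 8 cultures received it after growth in serum and LIF without feeders. E14 is a single ESC line of strain 129/Ola, and the labels name neither replicate cultures nor clones. No serum library was analysed here, so the earliest level is that at 4 hr in 2i.

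The libraries held 4753528 to 18434932 counts, the vitC libraries at 24 and 16 hr being the shallowest. The 4 and 24 hr libraries were read on lane 8 and the 16 and 32 hr libraries on lane 7, so that lane and time cannot be told apart when 16 or 32 hr is set against 4 hr. The share of counts on Lars2 and features that follow it was 0.0113% and 0.0277% at 4 hr and 0.206% to 7.11% later. All 10 ES cell markers examined, Pou5f1 and Nanog among them, reached 1 CPM, the read count of a gene relative to its library's scaled size, in every library, and their summed level was 1779 to 2234 CPM. The summed level of 10 fibroblast markers was 327 and 334 CPM at 4 hr and 595 to 1674 CPM later, with Lum at 0 in 4 libraries, and that of 10 trophoblast markers was 1133 and 1601 CPM at 4 hr and 656 to 969 CPM later. Of 10 primitive endoderm and 10 primed epiblast markers, 5 to 7 and 4 to 5 reached 1 CPM, with summed levels of 327 to 419 and 31.7 to 52.5 CPM. Within a list the markers did not all move together. In the edgeR test described below, 5 of 9 fibroblast markers tested rose between 4 and 32 hr and 2 fell. For trophoblast 1 of 9 rose and 4 fell, with a median log2 change of 0.17. For primitive endoderm 4 of 7 rose and 0 fell, with a median of 0.68. Over all genes tested 13.5% rose and 11.8% fell. The fibroblast and trophoblast sums and some primitive endoderm markers moved with time, as several of the genes below did. The part of such cells in those changes was not tested. In RNA from whole cultures, fewer cells of a type and less RNA per cell cannot be told apart.

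Levels of different genes were compared as RPKM, the CPM divided by the merged exon length in kilobases. Mtf2 was the highest of the 10 genes in all 8 libraries (73.8 to 113 RPKM, median 92.2) and Ezh1 the lowest (4.10 to 8.27, median 6.43). Suz12 had the next highest mean level, with 45.1 to 62.7 RPKM and a median of 51.1. Rnf2 followed with 32.8 to 48.9 RPKM (median 36.7), and it lay below Suz12 in 7 of 8 libraries. Eed came next, with 25.4 to 38.8 RPKM and a median of 32.4. The next 3 genes were close together, since the level was 14.9 to 27.8 RPKM for Ezh2 (median 19.7), 16.9 to 23.8 for Jarid2 (median 19.8) and 16.2 to 25.0 for Pcgf6 (median 18.4). Ezh2 exceeded Jarid2 in 6 of 8 libraries and Jarid2 exceeded Pcgf6 in 5 of 8. Per merged exon length, these neighbors thus did not differ beyond their spread. Aebp2 (10.9 to 12.8 RPKM, median 11.6) and Cbx7 (9.50 to 11.3, median 9.98) lay between Pcgf6 and Ezh1, and Aebp2 was above Cbx7 in 7 of 8 libraries. The widest range over libraries was that of Ezh1, whose highest level was 2.02 times its lowest, followed by Ezh2 (1.87 times), and the narrowest were those of Aebp2 (1.18 times) and Cbx7 (1.19 times). The order depended on the length used. With the longest transcript in place of merged exons, Eed rose to rank 2 by mean level. Suz12 and Rnf2 took ranks 3 and 4, while Mtf2 stayed first. Ezh1 was still last by mean level, but its median of 11.4 RPKM was then above that of Cbx7 (10.7). With that length the medians of Ezh2, Pcgf6 and Jarid2 were 47.3, 32.7 and 23.0 RPKM, so these genes lay further apart.

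**Figure D1:**
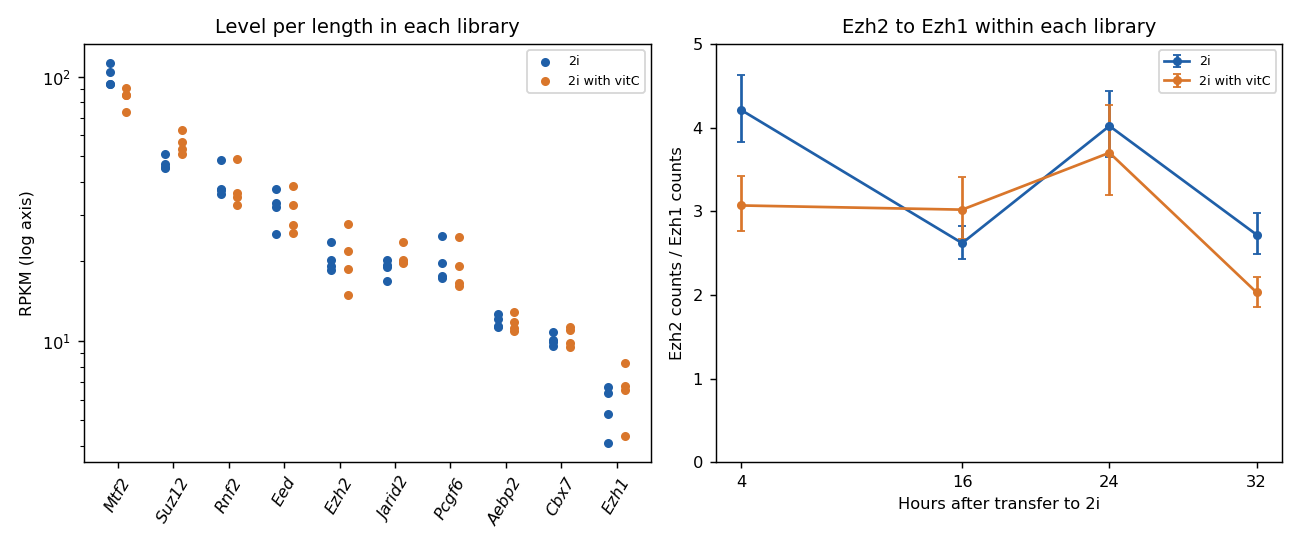
Left, RPKM (log axis) of each gene in each of the 4 libraries in 2i (blue) and the 4 with vitC (orange), ordered by mean level; Mtf2 is at the top in every library and Ezh1 at the bottom. Right, Ezh2 counts divided by Ezh1 counts in each library against hours in 2i, with 95% intervals for counting error, lying between 2.03 and 4.21.

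The first question was whether the genes moved with time in 2i. Values are given as CPM scaled by edgeR's TMM factors, and the test was edgeR's quasi-likelihood test in an additive model of time and treatment on all 8 libraries, with Benjamini-Hochberg adjustment over the 14931 genes tested. With 1 library per combination, its error measures how far the 2i and vitC time courses depart from being parallel, since there were no replicate cultures to give one. Between 4 and 16 hr, 4 of the 10 genes passed an adjusted p of 0.05, of which Ezh1 rose and Eed, Rnf2 and Pcgf6 fell. Over all genes tested 16.4% passed (9.16% rose and 7.24% fell). Between 4 and 24 hr, which were read on the same lane, 4 of 10 passed, with Ezh1 and Ezh2 rising and Rnf2 and Pcgf6 falling, against 20.5% of all genes (11.5% rose and 8.98% fell). Between 4 and 32 hr, 3 of 10 passed, with Ezh1 rising and Rnf2 and Pcgf6 falling, against 25.3% of all genes (13.5% rose and 11.8% fell). The median log2 change of the 10 genes was -0.02, 0.08 and -0.02 at the 3 times, beside 0.01, 0.01 and 0.00 for all genes tested. Between 16 and 32 hr, both on lane 7, edgeR called 0 of 10 genes (0 at an unadjusted p under 0.05 and 0 with DESeq2), against 0.583% of all genes (0.335% rose and 0.248% fell). When the Lars2 share was added as a covariate, 0 of the 10 genes passed at any time. At an unadjusted p under 0.05 there were 1 at 16 hr, 0 at 24 hr and 1 at 32 hr. Over all genes tested 73, 0 and 159 passed (2178, 1416 and 2394 at an unadjusted p under 0.05). The share was lower in both 4 hr libraries than in all later ones, so this fit cannot tell the share and time apart. In that fit the log2 change at 24 hr was 0.61 for Ezh1, 0.12 for Ezh2, -0.20 for Rnf2 and -0.06 for Pcgf6. A check without the 2 shallowest libraries, vitC at 16 and 24 hr, was chosen after seeing the data. It left 1 library at each of these times. Fewer of the 10 genes then passed at 16 and 24 hr and more at 32 hr. Over all genes tested, too, fewer passed at 24 hr and more at 32 hr, while about as many passed at 16 hr.

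The 250 bases before the transcription start are shown for the 5 genes that passed in at least 1 of these comparisons, as these are the promoters of the genes that moved. They were taken from RefSeq on GRCm38.p6, which is not the build behind the counts, and are written 5′ to 3′ on the gene's strand in lower case, with matches to a GC box (GGGCGG or its complement CCGCCC) or a CCAAT box (CCAAT or ATTGG) in capitals.
Ezh1 (chr11:101226464-101226713, minus strand): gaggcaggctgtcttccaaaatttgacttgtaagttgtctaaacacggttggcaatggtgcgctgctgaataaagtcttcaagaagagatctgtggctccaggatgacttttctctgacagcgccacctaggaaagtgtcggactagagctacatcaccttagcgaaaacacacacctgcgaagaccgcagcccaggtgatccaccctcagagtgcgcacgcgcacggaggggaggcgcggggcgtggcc
Ezh2 (chr6:47595031-47595280, minus strand): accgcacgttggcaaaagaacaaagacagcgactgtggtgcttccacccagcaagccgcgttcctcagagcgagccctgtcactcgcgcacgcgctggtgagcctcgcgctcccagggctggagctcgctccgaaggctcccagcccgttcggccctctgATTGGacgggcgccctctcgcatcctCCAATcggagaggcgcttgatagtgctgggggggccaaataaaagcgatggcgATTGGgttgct
Eed (chr7:89980977-89981226, minus strand): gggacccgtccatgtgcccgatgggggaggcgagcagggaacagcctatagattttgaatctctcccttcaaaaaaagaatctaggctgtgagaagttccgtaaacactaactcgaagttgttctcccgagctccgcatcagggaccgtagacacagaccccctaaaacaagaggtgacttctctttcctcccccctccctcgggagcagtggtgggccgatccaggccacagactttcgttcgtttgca
Rnf2 (chr1:151500992-151501241, minus strand): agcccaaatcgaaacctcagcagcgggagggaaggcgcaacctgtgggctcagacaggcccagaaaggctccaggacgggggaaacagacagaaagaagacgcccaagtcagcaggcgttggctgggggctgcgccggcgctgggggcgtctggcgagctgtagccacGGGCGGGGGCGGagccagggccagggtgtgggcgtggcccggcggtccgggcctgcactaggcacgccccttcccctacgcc
Pcgf6 (chr19:47050907-47051156, minus strand): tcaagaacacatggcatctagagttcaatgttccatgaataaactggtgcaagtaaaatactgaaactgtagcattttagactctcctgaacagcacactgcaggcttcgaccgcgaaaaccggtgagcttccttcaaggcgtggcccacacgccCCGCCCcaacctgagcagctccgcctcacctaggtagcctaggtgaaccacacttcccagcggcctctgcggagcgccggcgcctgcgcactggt
The Rnf2 promoter held 2 GC boxes, which began 82 and 76 bases before the start, and that of Pcgf6 held 1, 95 bases before it. The Ezh2 promoter held 3 CCAAT boxes at 90, 64 and 11 bases before the start. Of 32851 promoter windows of this length, 32.7% held a GC box and 33.8% a CCAAT box. On both strands, none of the 5 promoters held the E2F words TTTGGCGC, TTTCGCGC or TTTCCCGC (1.53% of windows held any), the E-box CACGTG (6.02%), the ETS word CCGGAAG (6.91%), the TCF/LEF word CTTTGA (13.8%) or the words searched for NRF1 (0.782%) and YY1 (0.301%), and those of Ezh1 and Eed held none of the words searched. The GC content of these windows was 55.2% for Ezh1, 63.6% for Ezh2, 54.4% for Eed, 70.4% for Rnf2 and 56% for Pcgf6, with 14, 23, 12, 20 and 14 CpG dinucleotides. Promoter windows of Suz12, Mtf2, Aebp2, Jarid2 and Cbx7, which did not pass, held GC boxes and CCAAT boxes as well. That of Suz12 also held an E2F word and the TCF/LEF word.

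Ezh1, whose product is the less active of the PRC2 methyltransferases and is best known from non-dividing cells, rose at all 3 later times, though in 2i its level at 24 hr was below those at 16 and 32 hr. It was counted at 30.5 CPM at 4 hr in 2i and at 47.3, 39.4 and 49.6 CPM at 16, 24 and 32 hr, and with vitC at 32.4, 48.3, 50.2 and 61.6 CPM. All 6 later libraries lay above both 4 hr libraries, a pattern shown by 18.7% of all genes tested, and the highest level was with vitC at 32 hr. The log2 change from 4 hr was 0.61 ± 0.16 (SE, adjusted p = 0.023, edgeR) at 16 hr, 0.50 ± 0.16 (adjusted p = 0.047) at 24 hr and 0.81 ± 0.16 (adjusted p = 0.0031) at 32 hr. The 32 hr call was lost without 1 of the 8 libraries, vitC at 32 hr (adjusted p = 0.051). The 24 hr call held only without either 16 hr library and was lost without each of the other 6 (adjusted p from 0.070 to 0.32), and the 16 hr call was lost without 2i at 4 hr, 2i at 16 hr or vitC at 4 hr (adjusted p from 0.054 to 0.15). Its exons shared 0.093% of their 50-base words with another gene and 0 with Ezh2.

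Ezh2, the main PRC2 methyltransferase of dividing cells, was highest at 24 hr in both treatments. Its levels in 2i were 128, 124, 158 and 135 CPM at 4, 16, 24 and 32 hr, and with vitC 99.6, 146, 186 and 125 CPM. Both 24 hr libraries lay above the other 6, while the 32 hr libraries lay on both sides of the 4 hr library in 2i. From 4 to 24 hr the level rose by 0.59 ± 0.16 on the log2 scale (adjusted p = 0.024, edgeR), and the single ratios were 1.23-fold in 2i and 1.87-fold with vitC. At 16 and 32 hr the log2 change from 4 hr was 0.24 ± 0.16 (adjusted p = 0.34) and 0.19 ± 0.16 (adjusted p = 0.42), neither of which passed. The 24 hr call was lost without 2i at 32 hr or without the vitC library at 4, 24 or 32 hr (adjusted p from 0.050 to 0.29), and the log2 change was then as low as 0.35, without vitC at 4 hr. Without both vitC libraries at 16 and 24 hr it was 0.37 (adjusted p = 0.14, edgeR).

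As either paralog can serve as the PRC2 methyltransferase, their counts were also set against each other within each library, where scaling plays no part. In 2i there were 4.21 Ezh2 reads per Ezh1 read at the first time (counting interval 3.83 to 4.63), then 2.62 (2.43 to 2.83), 4.02 (3.65 to 4.44) and lastly 2.72 (2.49 to 2.98). With vitC the ratio was 3.07 (2.76 to 3.42), 3.02 (2.67 to 3.41), 3.70 (3.20 to 4.27) and 2.03 (1.86 to 2.22) in the same order. In 2i the libraries at 4 and 24 hr, both on lane 8, had the higher ratios and those at 16 and 32 hr, both on lane 7, the lower, and the lane and the time cannot be told apart. With vitC the ratio was lowest at 32 hr, below the intervals of the other 3 libraries. Per kilobase of exon the ratio stayed above 1 in all 8 libraries (2.26 to 4.69).

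Eed, whose product binds trimethylated H3K27 and stimulates the methyltransferase, was lower at 16 hr than at 4 hr. In that comparison lane and time cannot be told apart. Eed was counted at 144, 97.3, 128 and 123 CPM in 2i at the 4 times and at 148, 106, 125 and 97.8 CPM with vitC. All 6 later libraries lay below both 4 hr libraries, a pattern shown by 19.0% of all genes tested, but the levels at 24 hr were nearer to those at 4 hr than the 16 hr levels were. The log2 change from 4 hr was -0.53 ± 0.15 at 16 hr (adjusted p = 0.029, edgeR), -0.21 ± 0.15 at 24 hr (adjusted p = 0.33) and -0.41 ± 0.15 at 32 hr (adjusted p = 0.056). The 16 hr call was lost without 2i at 4 hr, 2i at 16 hr or vitC at 4 hr (adjusted p from 0.060 to 0.19). The 32 hr change passed without 2i at 16 hr (adjusted p = 0.044), without vitC at 16 hr (0.041) and without both (0.044), and it ranged from -0.60, without 2i at 32 hr, to -0.22, without vitC at 32 hr. Of its exonic 50-base words 5.82% also lie in other genes, most of them in E230029C05Rik, so a small part of its counts could be split or lost depending on how shared reads were counted.

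Suz12, the scaffold that holds the PRC2 core together, did not pass at any time. Its levels were 223, 253, 232 and 225 CPM in 2i and 262, 280, 310 and 253 CPM with vitC, so that the 4 hr level was the lowest in 2i, within counting error of 32 hr, and lay between the 32 and 16 hr levels with vitC. Relative to the first time, its log2 changes were 0.14, 0.15 and -0.02, each with an SE of 0.14 (adjusted p = 0.52, 0.47 and 0.93, edgeR).

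**Figure D2:**
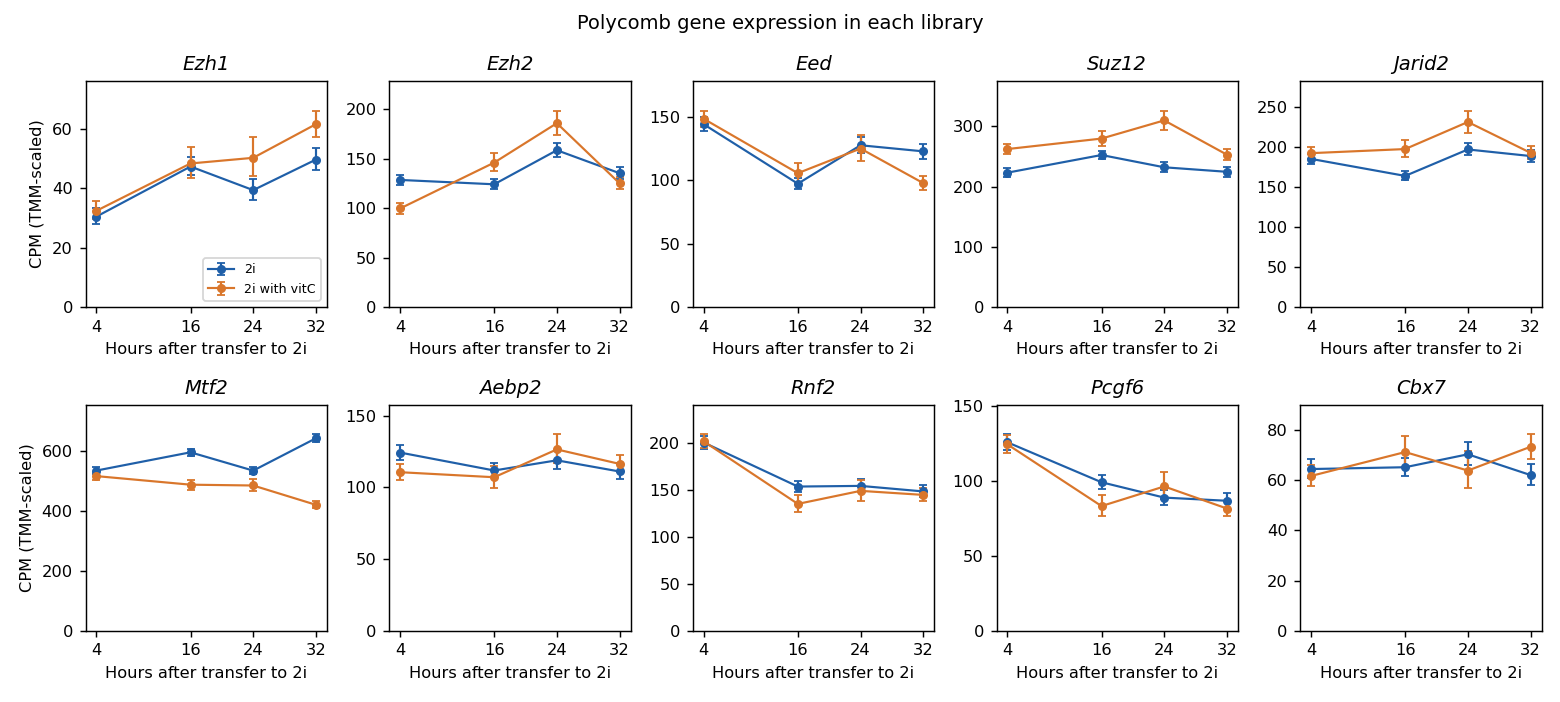
CPM (TMM-scaled) of each of the 10 genes against hours after transfer to 2i, in 2i (blue) and 2i with vitC (orange), 1 library per point, with Wilson 95% intervals for counting error only. Ezh1 starts at 30.5 and 32.4 CPM and ends at 49.6 and 61.6 CPM, whereas Rnf2 and Pcgf6 drop between 4 and 16 hr and stay lower.

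None of the 3 accessory genes passed at any time. Jarid2, a subunit that binds nucleosomes and aids the recruitment of PRC2, was counted at 185, 164, 197 and 189 CPM in 2i and at 192, 197, 231 and 193 CPM with vitC at 4, 16, 24 and 32 hr. Its 4 hr levels lay within the range of the later libraries. Mtf2, a Polycomb-like protein that binds CpG-rich DNA, was counted at 535, 596, 535 and 643 CPM in 2i and at 516, 488, 485 and 421 CPM with vitC. Of its exonic 50-base words 5.56% also lie in other genes, most of them in Tmed5, so the caution given for Eed holds here too. Its later levels were at or above the 4 hr level in 2i, within counting error at 24 hr, and below it with vitC, and the additive log2 change was 0.03, -0.05 and -0.01 at 16, 24 and 32 hr (adjusted p = 0.91, 0.85 and 0.97, edgeR). Aebp2, a zinc finger cofactor that is not found together with Mtf2 in the same PRC2 assembly, was counted at 124, 112, 119 and 111 CPM in 2i and at 111, 107, 127 and 116 CPM with vitC. These libraries overlapped across all times. At 24 hr the log2 change from 4 hr was 0.18 ± 0.14 for Jarid2 (adjusted p = 0.39), -0.05 ± 0.15 for Mtf2 (adjusted p = 0.85) and 0.06 ± 0.14 for Aebp2 (adjusted p = 0.79).

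Rnf2, which encodes the E3 ligase RING1B that ubiquitinates histone H2A in PRC1, fell early and stayed lower. In 2i it was counted at 201 CPM at 4 hr and at 154, 155 and 149 CPM at 16, 24 and 32 hr, and with vitC at 202, 135, 149 and 145 CPM. All 6 later libraries lay below both 4 hr libraries, as in 19.0% of all genes tested. Relative to 4 hr its log2 change was -0.48 ± 0.13 at 16 hr (adjusted p = 0.029, edgeR), -0.41 ± 0.13 at 24 hr (adjusted p = 0.047) and -0.46 ± 0.13 at 32 hr (adjusted p = 0.025), or 0.72, 0.75 and 0.73 of the 4 hr level. The calls were lost without 6 of the 8 libraries at 16 hr (all but the 24 hr libraries, adjusted p from 0.052 to 0.16), without 6 at 24 hr (all but the 16 hr libraries, 0.069 to 0.23) and without any 4 or 32 hr library at 32 hr (0.060 to 0.16), with the log2 change between -0.55 and -0.37 over these fits. Its paralog Ring1, the other PRC1 ligase, was far less abundant, with 9.05 to 26.5 Rnf2 reads per Ring1 read, and the ratio at 4 hr was 14.6 in 2i and 26.5 with vitC, where 102 Ring1 reads were counted.

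Pcgf6, the subunit of the variant PRC1.6 complex that also holds L3mbtl2 and Mga, fell in parallel. It was counted at 126, 99.0, 88.8 and 86.7 CPM in 2i and at 124, 83.1, 96.2 and 81.5 CPM with vitC. Again the 6 later libraries lay below both 4 hr libraries, with the lowest level in vitC at 32 hr. The log2 change from 4 hr was -0.46 ± 0.14 at 16 hr (adjusted p = 0.044, edgeR), -0.44 ± 0.14 at 24 hr (adjusted p = 0.046) and -0.57 ± 0.14 at 32 hr (adjusted p = 0.011). The 32 hr call was lost without 2i at 32 hr, vitC at 4 hr or vitC at 32 hr (adjusted p from 0.073 to 0.099). The 24 hr call was lost without each library but the 2 at 16 hr (0.070 to 0.33), and the 16 hr call without any 1 of the 8 (0.059 to 0.24). Against Bmi1 (Pcgf4), a PCGF subunit of canonical PRC1, there were 6.16, 4.62, 4.34 and 3.79 Pcgf6 reads per Bmi1 read in 2i and 7.08, 4.8, 4.11 and 2.84 with vitC, so that in both treatments the ratio was highest at 4 hr and lowest at 32 hr.

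Cbx7, the main chromodomain subunit of canonical PRC1 in ESCs, did not pass at any time. Its levels were 64.4, 65.1, 70.3 and 62.0 CPM in 2i and 61.6, 71.1, 63.8 and 73.2 CPM with vitC, and they overlapped across times. Its log2 change from 4 hr was 0.11 ± 0.15, 0.09 ± 0.15 and 0.10 ± 0.15 at 16, 24 and 32 hr (adjusted p = 0.65, 0.69 and 0.66, edgeR). Together with Eed and Ezh1, Rnf2 and Pcgf6 made up 4 of 10 genes whose later libraries all lay on 1 side of both 4 hr libraries, near the 37.6% of all genes tested that did so.

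**Figure D3:**
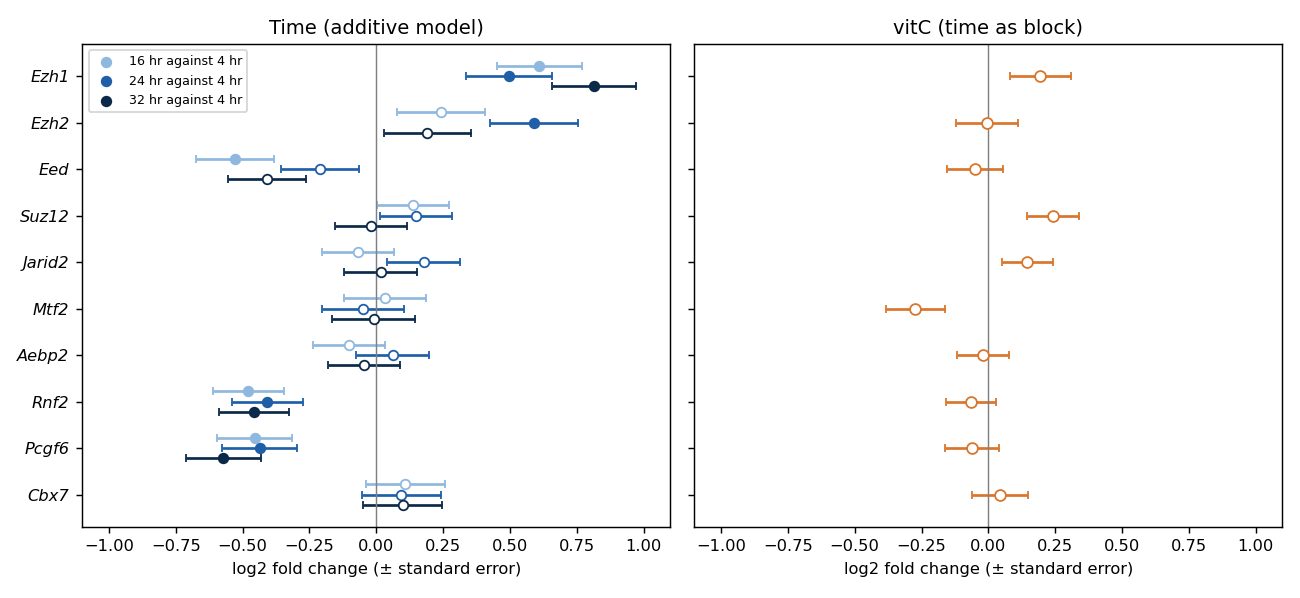
Left, log2 fold change ± SE of each gene at 16, 24 and 32 hr against 4 hr (light to dark blue) from the additive model; right, log2 fold change ± SE with vitC, with time as a block. Filled points passed an adjusted p of 0.05 (edgeR): Ezh1 at all 3 times, Ezh2 at 24 hr, Eed at 16 hr, Rnf2 and Pcgf6 at all 3 times, and none for vitC.

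The second question was whether vitC, a cofactor of TET and other iron-dependent dioxygenases, changed these genes. In the additive model edgeR called 0 of the 10 genes (2 at an unadjusted p under 0.05 and 0 with DESeq2), against 0.167% of all genes tested. Of all 14931 genes 2062 had an unadjusted p under 0.05 and 297 passed with DESeq2. The median log2 change of the 10 was -0.01, beside -0.02 for all genes. The pair under an unadjusted 0.05 was Suz12 and Mtf2. Suz12 was higher with vitC at all 4 times, at 262 against 223, 280 against 253, 310 against 232 and 253 against 225 CPM, and its log2 change was 0.24 ± 0.10 (adjusted p = 0.28, edgeR). Mtf2 was lower with vitC at all 4 times, at 516 against 535, 488 against 596, 485 against 535 and 421 against 643 CPM, and its log2 change was -0.27 ± 0.11 (adjusted p = 0.29, edgeR). The gap was smallest at 4 hr (0.97-fold, log2 counting interval -0.10 to -0.01) and widest at 32 hr (0.66-fold, log2 counting interval -0.66 to -0.56). Ezh1 (0.19 ± 0.11, adjusted p = 0.48, edgeR) and Jarid2 (0.15 ± 0.10, adjusted p = 0.54) were also higher with vitC at all 4 times, by 1.02 to 1.28-fold and 1.02 to 1.2-fold. In all, 4 of 10 genes lay on 1 side at all 4 times (3 above and 1 below), a pattern shown by 21.7% of all genes tested (11.0% above and 10.7% below). For the other 6 genes the log2 change lay between -0.07 and 0.04. On simulated counts for the same comparison, drawn without lane or Lars2 effects, 94% of genes changed 2-fold were recovered. Changes of the sizes seen here thus lie below what that check covered.

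Whether the vitC effect itself shifted with hours was tested as a linear term, which edgeR called for 0 of 10 genes (0 at an unadjusted p under 0.05 and 0 with DESeq2) and for 0% of all genes tested, of which 431 had an unadjusted p under 0.05 and 1 passed with DESeq2. The largest of these terms among the 10 genes was that of Mtf2 (-0.16 ± 0.11, unadjusted p = 0.17 and adjusted p = 1.0, edgeR).

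The other genes of the same machinery were taken from lists written by complex, with 45 regulators beyond the 10 described above. Of these, 44 matched an identifier and were tested (Ezhip did not match). Between 4 and 24 hr 9 rose, 5 fell and 30 did not pass, and their median log2 change was 0.21 beside 0.01 for all genes tested, of which 11.5% rose and 8.98% fell. At 16 hr 5 rose and 4 fell (9.16% and 7.24% of all genes), at 32 hr 5 rose and 6 fell (13.5% and 11.8%), and between 16 and 32 hr 1 fell (0.248%). With the Lars2 share as a covariate 0 of 44 passed at 16, 24 or 32 hr (7, 4 and 9 at an unadjusted p under 0.05). Over all 14931 genes tested that fit called 73, 0 and 159 (2178, 1416 and 2394 at an unadjusted p under 0.05), and it cannot tell the share and time apart. Without the vitC libraries at 16 and 24 hr, which left 1 library at 24 hr, fewer of the 44 and fewer of all genes rose or fell at 24 hr. For vitC edgeR called 0 of 44 (15 at an unadjusted p under 0.05, and 4, all higher, with DESeq2). Of all 14931 genes tested 2062 had an unadjusted p under 0.05 for vitC, and DESeq2 called 231 higher and 66 lower.

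By complex, with the genes described above included, 2 of 6 PRC2 core genes rose and 1 fell at 24 hr, 0 of 6 accessory genes passed (0 at an unadjusted p under 0.05 and 0 with DESeq2), and 2 of 8 ligase and PCGF genes of PRC1, Rnf2 and Pcgf6, fell. Of 10 canonical PRC1 subunits 2 rose and 1 fell, of 15 variant PRC1 subunits 3 rose and 2 fell, of 7 genes of the PR-DUB deubiquitinase 3 rose and 1 fell, and of 2 H3K27 demethylases 1 rose, where 11.5% of all genes tested rose and 8.98% fell. Most of these lists are too short for their counts to be read against those shares. The regulators with the largest rises were Kdm6b, an H3K27 demethylase (log2 1.68 ± 0.31, adjusted p = 0.0031, edgeR), the variant PRC1 subunits Auts2 (1.45 ± 0.33, adjusted p = 0.010) and Fbrs (1.30 ± 0.30, adjusted p = 0.0096), and Scmh1 of canonical PRC1 (1.24 ± 0.32, adjusted p = 0.017). Kdm6b was counted at 6.29, 10.8, 12.2 and 11.7 CPM in 2i and at 6.95, 17.0, 35.6 and 15.4 CPM with vitC, so that it was lowest at 4 hr in both and highest with vitC at 24 hr. These 4 genes were called no longer without vitC at 4 hr or vitC at 24 hr (adjusted p from 0.056 to 0.17 over all libraries whose removal ended a call), and Fbrs and Scmh1 also without 2i at 24 hr. The log2 change of Kdm6b was 1.08 without vitC at 24 hr and that of Auts2 was 0.95 without vitC at 4 hr.

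The regulators with the largest falls were Rbbp7, a histone-binding subunit of PRC2 (-0.51 ± 0.13, adjusted p = 0.018, edgeR), Bap1, the deubiquitinase of PR-DUB (-0.51 ± 0.13, adjusted p = 0.020), Phc1 of canonical PRC1 (-0.50 ± 0.16, adjusted p = 0.040) and L3mbtl2, a partner of Pcgf6 (-0.48 ± 0.14, adjusted p = 0.028). Rbbp7 was counted at 492, 369, 364 and 344 CPM in 2i and at 471, 300, 315 and 291 CPM with vitC, and L3mbtl2 at 176, 124, 138 and 115 CPM in 2i and at 178, 120, 116 and 121 CPM with vitC. The 6 later libraries lay below both 4 hr libraries in 19.0% of all genes tested, Rnf2 and Pcgf6 among them. They did so too for Rbbp7 and L3mbtl2, which were named for their large falls. These calls were lost without 2i at 24 hr, vitC at 4 hr or vitC at 24 hr, and those of Phc1 and L3mbtl2 also without 2i at 4 hr (adjusted p from 0.063 to 0.34). Chosen after their values were seen, the PRC1.6 subunits Mga and Tfdp1 were lower at 32 hr than at 4 hr. Their log2 changes were -0.59 ± 0.13 (adjusted p = 0.0071, edgeR) and -0.69 ± 0.14 (adjusted p = 0.0038), and that of L3mbtl2 was -0.59 ± 0.14 (adjusted p = 0.0090). Lane and time cannot be told apart in this comparison, in which 11.8% of all genes tested fell. At 24 hr, on the lane of 4 hr, the log2 change was -0.25 for Mga (adjusted p = 0.20, edgeR) and -0.48 for Tfdp1 (adjusted p = 0.029). Other PRC1.6 subunits on the list did not pass at 32 hr, with log2 changes of -0.42 for E2f6 (adjusted p = 0.12, edgeR), -0.34 for Cbx3 (0.30), -0.13 for Max (0.66), -0.07 for Wdr5 (0.77), 0.10 for Rybp (0.68) and 0.46 for Yaf2 (0.12). Also chosen after its values were seen, Phc2 rose where its paralog Phc1 fell. Phc2 was counted at 18.53, 31.2, 33.8 and 40.1 CPM in 2i and at 18.0, 34.8, 52.2 and 59.3 CPM with vitC, and Phc1 at 108, 97.4, 70.7 and 63.2 CPM in 2i and at 130, 118, 99.9 and 59.0 CPM with vitC. From 4 to 32 hr, read on different lanes, the log2 change was 1.41 ± 0.20 for Phc2 (adjusted p = 0.0004, edgeR) and -0.95 ± 0.16 for Phc1 (adjusted p = 0.0012). At 24 hr, on the lane of 4 hr, Phc2 changed by 1.19 ± 0.20 (adjusted p = 0.0018, edgeR).

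**Figure D4:**
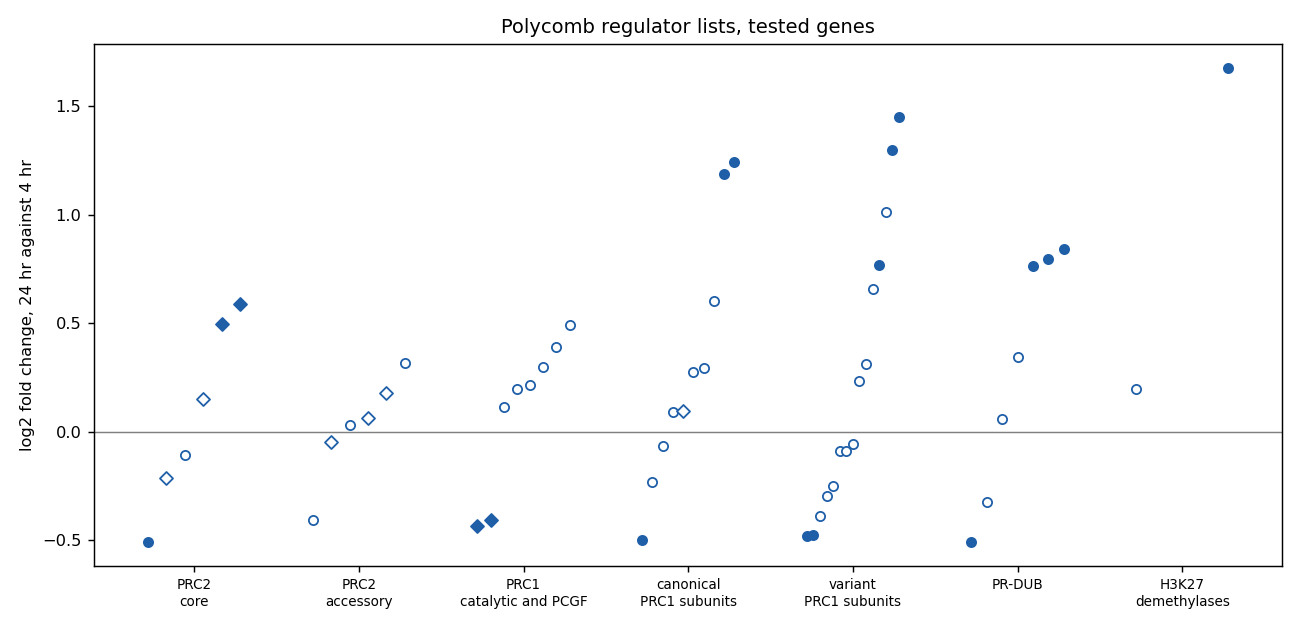
Log2 fold change at 24 hr against 4 hr (vertical axis) of each tested regulator, grouped by complex and sorted within it; diamonds are the 10 genes followed here, circles the other 44, and filled symbols passed an adjusted p of 0.05 (edgeR). The filled symbols lie on both sides of 0 in 4 of the 7 groups, with Kdm6b at 1.68 the highest.

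Last, 40 developmental regulators known as Polycomb targets in ESCs were examined, of which 39 matched an identifier (Sox1 did not) and 24 passed the filter on low counts. Of these 24, 11 rose and 2 fell between 4 and 24 hr, where 11.5% of all genes tested rose and 8.98% fell. With the Lars2 share as a covariate, which cannot be told apart from time, 0 of 24 passed (3 at an unadjusted p under 0.05). Over all 14931 genes tested that fit called 0 (1416 at an unadjusted p under 0.05). Without the vitC libraries at 16 and 24 hr, which left 1 library at 24 hr, fewer of the 24 and fewer of all genes rose or fell. Of the 13 targets with at least 1 CPM in both 4 hr libraries, 6 rose and 2 fell. The share of all genes at that level that did so was not counted. The others among the 24 fell short of 1 CPM in at least 1 of the 4 hr libraries, and a gene that passed the filter only through the later libraries had to differ. Hoxa2, Hoxb4 and Pax3 passed (adjusted p = 0.0077, 0.026 and 0.039, edgeR), but on few reads. At 4 hr in 2i and with vitC there were 1 and 9 Hoxa2 reads, 5 and 1 Hoxb4 reads and 3 and 0 Pax3 reads. At 24 hr the counts were 38 and 23, 27 and 3, and 12 and 4 in the same order. Pax3 reached 1 CPM only at 32 hr (7.13 CPM in 2i and 5.92 with vitC), so it entered the test through those libraries. It was not tested when either of them was left out. The Hoxa2 call was lost without vitC at 24 hr (adjusted p = 0.093), the Pax3 call without vitC at 4 hr or either 24 hr library (0.14 to 0.16), and the Hoxb4 call without any 4 or 24 hr library (0.067 to 0.40). Cdx2, a trophoblast regulator, was counted at 8.91, 4.79, 3.14 and 1.04 CPM in 2i and at 11.0, 3.90, 1.93 and 1.08 CPM with vitC, and Eomes at 5.24, 2.42, 2.12 and 2.16 CPM in 2i and at 5.60, 2.02, 2.15 and 1.84 CPM with vitC. Both fell, by 1.91 and 1.35 on the log2 scale at 24 hr (adjusted p = 0.0042 and 0.037, edgeR). The Cdx2 call was lost without vitC at 4 hr or vitC at 24 hr (adjusted p = 0.051 and 0.073) and the Eomes call without any 4 or 24 hr library (0.075 to 0.23). For vitC 0 of 24 targets were called by edgeR (1 at an unadjusted p under 0.05 and 0 with DESeq2).

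Among 11123 genes with a mean of at least 5 CPM, those whose log2 CPM followed Ezh1 most closely over the 8 libraries were B4galt5 (Pearson r = 0.98), Plekhb2 (0.98), Pigq (0.98), Ccnd3 (0.98) and Cenpx (0.97). The 8 points share the lanes, depths and time course of these libraries, so the values are a description. B4galt5 was counted at 41.7, 73.4, 60.9 and 78.7 CPM in 2i and at 42.4, 77.6, 80.5 and 90.8 CPM with vitC, with the same order of times as Ezh1 in both treatments.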

How the data were processed

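Per the labels, total RNA was depleted of ribosomal RNA and sequenced as single-end reads with a kit that does not mark strand. The submitters' processing notes name GSNAP, HTSeq and the builds NCBIM37 and mm9. The authors deposited raw counts per Ensembl gene for each library, with no normalization. The annotation release and the HTSeq mode are not given in the sources used here, so reads shared by overlapping genes may have been split or dropped. Lanes were read from the names of the deposited files.

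Symbols, exon lengths and GC content came from GENCODE M21, in which 32604 of 37263 identifiers were found. Its coordinates were not used, and promoter sequences came from RefSeq. 0 rows named no gene. Groups came from the labels. Genes that reached 1 CPM in 2 or more libraries (14931) were tested with edgeR 4.0.16 in R 4.3.3 (TMM, quasi-likelihood test, Benjamini-Hochberg adjustment, threshold 0.05). Time and vitC were terms of an additive model on all 8 libraries, which treats time as the block of the vitC comparison, and a linear term in hours tested a change of the vitC effect. The SE beside a log2 change is the size of that change divided by the square root of the test's F value. CPM is relative to the TMM-scaled sum of counts over tested genes. Intervals are 95% and cover counting error only, as do floors of 3 counts (0.163 to 0.631 CPM of the library totals), as the reads carry no molecular identifiers and may be copies. Shared 50-base words were counted between GENCODE M21 transcripts.

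The 10 genes, the lists and the tests were chosen with earlier results of these data known. Beyond the 10 genes, the text names by rule up to 4 regulators and 4 targets that rose most at 24 hr and as many that fell most, if they passed the threshold, averaged 5 CPM or more (1 CPM for targets) and had the same sign in both treatments, the same for vitC (none passed), and the 5 genes most like the member with the widest time effects. Of these, 1 target is not reported here. On simulated counts for 14931 genes, the 24 hr test recovered 80% of 2-fold and 99% of 4-fold changes with 10 false calls. The vitC test recovered 94% and 100% with 7. The changed genes were a sample of those averaging 5 CPM or more. No lane, Lars2 or further time effect was simulated, so these figures hold for that setting only. The alternatives tried were DESeq2 1.42.0, thinning, other scalings and low-count filters, offsets for GC content and length, a Lars2 covariate, models without a treatment or time term, and the omission of libraries.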

Additional observations from a re-analysis of the deposited data

How the results depend on the processing

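No paired analysis was possible because the labels number no replicates. Time already served as the block of the vitC comparison. With 1 library per combination and calls close to the threshold, the counts of members called moved easily. The cause was not tested. Of the 4 members called at 24 hr, 2 passed with DESeq2 (Ezh2, Rnf2), 2 with no filter (Ezh2, Pcgf6), 2 with GC content and length offsets (Ezh2, Pcgf6), 2 after thinning to the smallest total (Ezh2, Rnf2), 1 with no treatment term (Ezh2), 0 without both 32 hr libraries and 1 without the vitC 16 hr and 24 hr libraries (Pcgf6, chosen after seeing the data). Of the 4 at 16 hr, 0 passed with no treatment term, 2 without both 32 hr libraries and 2 without the vitC 16 hr and 24 hr libraries (Ezh1, Eed). With the Lars2 share as covariate 0 members passed at 16, 24 or 32 hr, and over all genes the count at 24 hr was 0 in place of 3061. That share was lower at 4 hr than in all later libraries, so the fit cannot tell it and time apart. Leaving out each library in turn gave 0 to 3 members at 16 hr, 0 to 4 at 24 hr and 0 to 4 at 32 hr. In such a fit the lone library at a time is assumed to vary like the others. The counts for 32 against 16 hr, vitC and the change of the vitC effect were 0 under every alternative run.

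The direction of every change that was called among the members held under all alternatives run. Small changes that did not pass turned sign. At 24 hr these were Jarid2 (-0.012 with GC content and length offsets), Mtf2 (0.413 with the Lars2 covariate, -0.194 to 0.094 leaving out each library), Aebp2 (-0.022 with the covariate, -0.086 with the offsets, -0.006 without vitC 16 and 24 hr, -0.047 to 0.16) and Cbx7 (-0.295 with the covariate, -0.016 with the offsets, -0.035 to 0.206). For vitC they were Ezh2 (0.003 with DESeq2 and with RLE size factors, 0.024 with no time block, 0.122 without 4 hr, 0.037 without 32 hr, -0.085 to 0.122), Eed (0.048 without 32 hr, -0.105 to 0.049), Aebp2 (0.037 without 4 hr, -0.055 to 0.037), Pcgf6 (0.014 with the covariate, 0.004 without 16 hr, -0.118 to 0.003) and Cbx7 (-0.035 with the covariate, -0.018 without 32 hr, -0.024 to 0.102). Over all genes vitC called 25 genes with edgeR, 297 with DESeq2 and 690 with no filter.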
